A study of Mus musculus with 8 samples.

Results

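The genes described here are 10 imprinted genes that control growth, taken as the rows of the expression table whose name is H19, Meg3, Peg3, Dlk1, Cdkn1c, Plagl1, Grb10, Mest, Rian or Nnat. Of these, 4 (Peg3, Dlk1, Grb10 and Mest) are among the 12528 genes of the table, and all 4 were among the 12494 genes tested. The other 6 (H19, Meg3, Cdkn1c, Plagl1, Rian and Nnat) are not listed in the table, by name or by Ensembl identifier, and were not analysed here. The cells were immortalized embryonic fibroblasts (MEFs) of WT mice and their Cav1KO littermates, seeded sparsely on stiff or soft polyacrylamide gels coated with fibronectin and harvested for RNA after 24 h. Cav1KO cells lack caveolin-1, the membrane protein that shapes caveolae. Each genotype was grown on each substrate, which gave 4 groups of 2 libraries, called WT soft, WT stiff, Cav1KO soft and Cav1KO stiff. Neither the labels nor the methods say how many embryos or independent lines each genotype came from, so genotype and cell line cannot be told apart, and the p-values measure the spread between libraries, which may be technical.

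An imprinted gene is transcribed from only the maternal or only the paternal chromosome in at least some tissues, because DNA methylation set in the germ line marks the parental copies differently. Many imprinted genes act on fetal growth, and paternally expressed members often promote it while maternally expressed members restrain it. They lie in clusters that share a control region, so that neighbours on the same chromosome can be expressed from opposite parental copies. The reads used here were not separated by allele, so the values are the sum of both copies.

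The values are TMM-normalized counts scaled to library size (CPM), in which TMM scaling corrects library size so that a few abundant genes weigh less. The libraries held from 17089836 to 19944952 reads, and a gene at 0 reads could have had up to 3 reads, which is from 0.151 to 0.181 CPM. The targeted gene, Cav1, did not exceed 0.411 CPM in any Cav1KO library and was at least 949.8 CPM in all WT libraries. Of the fibroblast markers 10 of 11 were listed, and their summed CPM was lowest in the Cav1KO stiff libraries (4683 to 5779), followed by WT stiff (9539 to 9721), WT soft (12311 to 12442) and Cav1KO soft (13381 to 13433). None of the epithelial (7), endothelial (5), skeletal muscle (6) and pluripotent (4) markers was listed. Of the 6 blood and macrophage markers only Cd68 was listed, at 0.552 to 4.55 CPM, and 4 of 5 neural markers were listed. Differences were tested with limma on log2(CPM + 1) and adjusted over all genes tested, with a threshold of 0.05. When each library was scaled to its plain total instead, the median difference of all genes shifted by -0.10 for stiffness in Cav1KO MEFs, by 0.10 for genotype on soft and by 0.10 for the interaction. The share of called genes that were higher then moved from 49.7% to 39.5%, from 44.7% to 55.0% and from 42.7% to 57.5%, respectively, and the number of calls among the 4 genes was the same.

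The 4 genes lie on different chromosomes (GRCm38). Peg3 (ENSMUSG00000002265) is on the minus strand at chr7:6703892-6730431, Dlk1 (ENSMUSG00000040856) on the plus strand at chr12:109452823-109463336, Grb10 (ENSMUSG00000020176) on the minus strand at chr11:11930508-12038683, and Mest (ENSMUSG00000051855) on the plus strand at chr6:30723547-30748465. All are protein coding, with 13324, 5657, 9089 and 3945 exonic bases, respectively. The 250 bases before a transcription start of each gene are shown to let the regulatory sequence of 3 genes that were lower in Cav1KO MEFs (Dlk1, Grb10 and Mest) be set beside that of the gene that was higher (Peg3). They are RefSeq sequences of GRCm38.p6, read 5′ to 3′ on the strand of the gene, and capitals mark matches to the motifs described after them.
Peg3, chr7:6730420-6730669: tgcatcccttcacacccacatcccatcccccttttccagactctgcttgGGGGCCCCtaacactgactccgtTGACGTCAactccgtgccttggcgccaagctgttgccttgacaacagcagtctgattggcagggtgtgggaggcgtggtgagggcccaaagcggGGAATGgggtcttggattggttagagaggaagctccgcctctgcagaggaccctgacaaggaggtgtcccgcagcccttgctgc
Dlk1, chr12:109452573-109452822: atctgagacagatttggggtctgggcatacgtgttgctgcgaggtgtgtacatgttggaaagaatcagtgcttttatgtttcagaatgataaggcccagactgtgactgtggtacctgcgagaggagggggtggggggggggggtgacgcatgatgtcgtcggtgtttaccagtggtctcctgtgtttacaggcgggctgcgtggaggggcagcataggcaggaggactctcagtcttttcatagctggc
Grb10, chr11:12037421-12037670: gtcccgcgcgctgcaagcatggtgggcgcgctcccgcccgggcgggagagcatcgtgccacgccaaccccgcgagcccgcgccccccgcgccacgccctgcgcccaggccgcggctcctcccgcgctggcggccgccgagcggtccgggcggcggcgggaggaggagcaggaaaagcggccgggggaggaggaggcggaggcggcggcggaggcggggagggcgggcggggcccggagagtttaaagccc
Mest, chr6:30737800-30738049: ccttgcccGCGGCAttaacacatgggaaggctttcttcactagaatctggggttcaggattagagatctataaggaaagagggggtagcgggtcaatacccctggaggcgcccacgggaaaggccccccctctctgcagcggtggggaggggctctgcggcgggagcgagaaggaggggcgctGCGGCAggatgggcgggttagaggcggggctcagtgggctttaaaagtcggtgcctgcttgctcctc
Grb10 and Mest have a second start in the same table, and all 6 windows of 300 bases (250 before a start and 50 after it) were searched on both strands for 5 motifs. The windows of Dlk1 and those at the second starts of Grb10 and Mest held no match. The Peg3 window held 1 match to TGACGTCA, the CREB motif, at 178 bases before the start, which 1.79% of 32851 mouse promoter windows hold. It also held 1 match to GGGGCCCC, a motif of the imprinted factor PLAGL1, which 1.08% hold, and 1 match to GGAATG, the TEAD motif, which 14.7% hold. The Mest window shown held 2 matches to TGCCGC, the motif of ZFP57, a zinc finger protein that maintains imprints, on the opposite strand, and the Grb10 window shown held 1 match at 24 bases after the start, outside the stretch printed. That motif occurs in 11.6% of windows. GCCATNTT, the YY1 motif, was in none of the 6 windows and in 6.05% of all windows. The Grb10 window held 45 CpG dinucleotides and was 80.0% G and C, against a median of 7 CpG dinucleotides and 52.7% over all windows, while the windows shown for Mest, Peg3 and Dlk1 held 17, 13 and 9. A match of these letters is a description of the sequence, and binding was not measured.

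Genotype separated all 4 genes on both substrates. Dlk1, Grb10 and Mest were lower in Cav1KO than in WT MEFs, and Peg3 was higher. Peg3 reached 1 CPM only in Cav1KO libraries, and Grb10 and Mest only in WT libraries. These genes therefore entered the test through the genotype in which they were higher, and their genotype calls are not independent of the filter. On stiff, the 4 calls (1 higher and 3 lower) compare with 51.7% of all genes called (25% higher and 26.6% lower), and on soft the same 4 calls compare with 54.0% (24.1% higher and 29.9% lower). The median difference of the 4 genes was -1.02 on stiff and -1.37 on soft on the log2(CPM + 1) scale. For all genes it was -0.03 on either substrate, a median that library scaling keeps small. The medians of the 4 lie between the values of Grb10 and Mest, whose size depends on the pseudocount. They do not describe Peg3, which differed by 3.60 on stiff and 4.62 on soft. Listed neural markers moved with genotype as well, and their part in these results was not tested. Sox2, a transcription factor of neural progenitors, ranged from 22.2 to 36.4 CPM over the WT libraries, while each Cav1KO library held 1 read or none, and Nes, a progenitor filament gene, was lower in Cav1KO MEFs (-3.13 on stiff and -1.93 on soft, adjusted p = 3.79e-05 and 0.000564). The neuronal cytoskeleton genes Tubb3 (1.69 and 1.77, adjusted p = 1.23e-05 and 9.31e-06) and Map2 (1.14 and 1.84, adjusted p = 0.00489 and 0.000334) were higher. The summed CPM of these 4 markers was 86.7 to 121 in WT stiff, 48.3 to 61.6 in WT soft, 47.5 to 54.0 in Cav1KO stiff and 44.7 to 46.7 in Cav1KO soft. In bulk RNA, fewer cells that express a gene and less RNA per cell cannot be told apart.

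**Figure D1:**
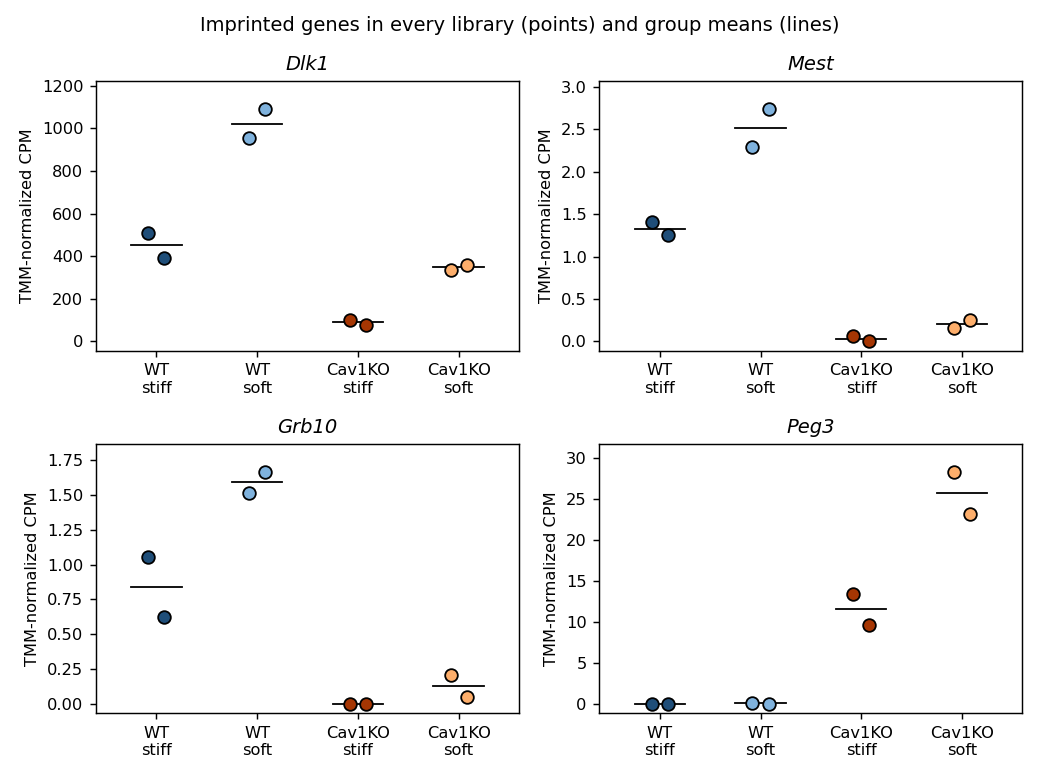
TMM-normalized CPM (y axis, linear, with its own range in each panel) of Dlk1, Mest, Grb10 and Peg3 in the 4 groups (x axis). Points are the 2 libraries of a group and lines their mean. Dlk1, Mest and Grb10 were highest in WT soft, and Peg3 was near 0 in both WT groups and highest in Cav1KO soft.

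Dlk1 encodes a transmembrane relative of the Notch ligands, expressed from the paternal copy, that holds back the differentiation of preadipocytes and other progenitors. In WT MEFs it was at 508 and 393 CPM on stiff and at 954 and 1091 CPM on soft, and in Cav1KO MEFs at 102 and 75.8 CPM on stiff and 335 and 361 CPM on soft. The WT soft libraries were highest, the Cav1KO stiff libraries were lowest, and no groups overlapped. On stiff, Dlk1 was 5.07-fold lower in Cav1KO than in WT MEFs (88.9 ± 18.6 CPM against 451 ± 80.8 CPM, mean ± SD, n = 2, adjusted p = 6.54e-06, limma). On soft it was 2.94-fold lower (348 ± 17.9 CPM against 1022 ± 96.7 CPM, adjusted p = 6.87e-05). Among all 12494 genes, the log2 difference of Dlk1 between genotypes was the 212th from the lowest on stiff and the 444th on soft.

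Dlk1 also fell on stiff relative to soft in both genotypes. The fall was 2.27-fold in WT (log2 difference -1.19, SE 0.16, adjusted p = 0.000484) and 3.91-fold in Cav1KO MEFs (log2 difference -1.97, SE 0.16, adjusted p = 3.17e-05). The difference between these falls was 0.78 on the log2 scale (SE 0.22) and did not pass the threshold (adjusted p = 0.0569). It did pass without the first Cav1KO stiff library (0.99, adjusted p = 0.0119) and without the second WT stiff library (0.97, adjusted p = 0.0418). Of the total sum of squares of Dlk1 over the 8 libraries on the log2(CPM + 1) scale, genotype held 57.9%, substrate 38.3%, their interaction 2.35% and the spread between replicates 1.40%. Substrate held from 1.99% to 9.08% for the other 3 genes. Those shares are limited by low values, since Peg3 in WT and Grb10 and Mest in Cav1KO MEFs held 5 reads or fewer a library. In the other genotype they were also lower on stiff, Peg3 2.23-fold in Cav1KO MEFs, and Mest 1.90-fold and Grb10 1.86-fold in WT MEFs. In the order of the group means, WT stiff and Cav1KO soft were neighbours, and the gap of 33.0 CPM between their nearest libraries was smaller than the difference of 114 CPM between the 2 WT stiff libraries. The summed CPM of the fibroblast markers was also lowest in Cav1KO stiff, although Pdgfra and Pdgfrb were lowest in WT stiff and Twist1 in Cav1KO soft. The part of these markers in the result was not tested.

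Peg3 encodes a zinc finger transcription factor, expressed from the paternal copy, with known roles in growth and maternal behaviour. It was nearly silent in WT MEFs, with 1 read and 0 reads in the WT stiff libraries (0.0502 and 0 CPM) and 2 reads and 1 read in the WT soft libraries (0.121 and 0.0537 CPM). In Cav1KO MEFs it was at 13.5 and 9.70 CPM on stiff (229 and 177 reads) and at 28.4 and 23.2 CPM on soft (543 and 451 reads). All 4 Cav1KO libraries therefore lay above all 4 WT libraries, and the 2 soft Cav1KO libraries lay above the 2 stiff ones.

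The ratio of Cav1KO to WT for Peg3, from reads scaled to library size, was 432 on stiff (95% exact counting interval 77.0 to 17086, 406 against 1 read) and 302 on soft (103 to 1467, 994 against 3 reads). Such intervals cover counting error only. The limma difference was 3.60 on stiff (adjusted p = 1.18e-06) and 4.62 on soft (adjusted p = 2.38e-07), and its size depends on the pseudocount because the WT libraries held at most 2 reads each. These were the 50th and the 25th highest differences between genotypes of all genes tested. In Cav1KO MEFs Peg3 was 2.23-fold lower on stiff than on soft (11.6 ± 2.67 CPM against 25.8 ± 3.67 CPM, log2 difference -1.10, SE 0.18, adjusted p = 0.00108). No fold change with stiffness is given for WT MEFs, where both groups held 3 reads or fewer in all. Genotype held 96.1% of the sum of squares of Peg3, in which WT MEFs had too few reads to show an effect of substrate.

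Grb10 encodes an adaptor protein that binds the insulin and IGF1 receptors and dampens their signalling, and is expressed from the maternal copy in most tissues outside the brain. It was a low gene in WT MEFs, at 1.05 and 0.627 CPM on stiff (21 and 11 reads) and 1.51 and 1.67 CPM on soft (25 and 31 reads). In Cav1KO MEFs it was at 0 reads in both stiff libraries and at 0.209 and 0.0514 CPM in the soft libraries (4 reads and 1 read). On stiff it was thus at least 4.93-fold lower in Cav1KO MEFs, with 3 reads allowed in each library at 0 reads (limma difference -0.87, SE 0.17, adjusted p = 0.00281). On soft it was 12.3-fold lower (counting interval 4.96 to 39.3, 5 against 56 reads, limma difference -1.20, SE 0.17, adjusted p = 0.000445).

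Mest encodes an enzyme of the alpha/beta hydrolase fold family, is expressed from the paternal copy, and is known to rise in growing adipose tissue. WT MEFs had 1.41 and 1.25 CPM on stiff (28 and 22 reads) and 2.30 and 2.74 CPM on soft (38 and 51 reads), and Cav1KO MEFs had 0.0588 and 0 CPM on stiff (1 read and 0 reads) and 0.157 and 0.257 CPM on soft (3 and 5 reads). The WT and Cav1KO libraries did not overlap. Mest was 47.0-fold lower in Cav1KO MEFs on stiff (counting interval 8.06 to 1895, 1 against 50 reads, limma difference -1.18, SE 0.15, adjusted p = 0.000276) and 12.2-fold lower on soft (5.93 to 29.1, 8 against 89 reads, limma difference -1.54, SE 0.15, adjusted p = 5.28e-05). The limma differences of Grb10 and Mest are smaller than the folds of their reads because the pseudocount of 1 CPM is close to their levels.

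With stiffness, 3 of the 4 genes were called lower on stiff in WT MEFs (Dlk1, Mest and Grb10), where 48.4% of all genes were called and 26.3% were lower. In Cav1KO MEFs 2 of 4 were called lower on stiff (Dlk1 and Peg3), against 56.1% of all genes called and 28.2% lower. The calls of Mest and Grb10 in WT MEFs rest on few reads. Mest was 1.90-fold lower on stiff (counting interval 1.33 to 2.74, limma difference -0.59, SE 0.15, adjusted p = 0.0116), and Grb10 was 1.86-fold lower (1.19 to 2.97, limma difference -0.50, SE 0.17, adjusted p = 0.0382). Neither passed in the edgeR fit of recovered reads (adjusted p = 0.0608 for Mest and 0.146 for Grb10) or with DESeq2 (0.293 and 0.445). Without the second WT stiff library the adjusted p was 0.0559 for Mest and 0.201 for Grb10. The call of Grb10 was also lost without the first or the second WT soft library (0.0839 and 0.113) and without the first or the second Cav1KO soft library (0.0519 and 0.0521), which enter through the shared estimate of the spread. In Cav1KO MEFs both genes were near the limit of detection, with 0 against 5 reads for Grb10 (adjusted p = 0.416) and 1 against 8 reads for Mest (adjusted p = 0.227, a ratio of 7.31 with a counting interval of 0.980 to 324). Proliferation genes moved with the substrate too, with summed CPM of 3160 to 3353 on stiff and 1852 to 2377 on soft over 14 genes. Among them, Mki67 and Top2a were lower on stiff in Cav1KO MEFs, at 0.350 and 0.490 of their mean CPM on soft. The part of the proliferation genes in these results was not tested.

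**Figure D2:**
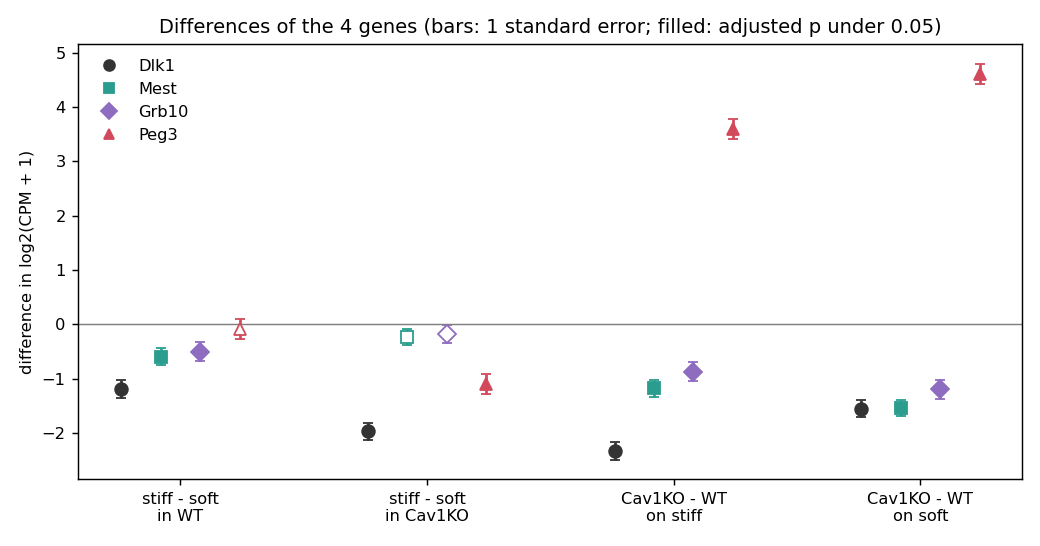
Difference in log2(CPM + 1) (y axis) of Dlk1, Mest, Grb10 and Peg3 in each of the 4 contrasts (x axis), from the limma fit, with bars of 1 standard error and filled symbols for an adjusted p under 0.05. Peg3 is the only gene above 0 in the contrasts of genotype, at 3.60 and 4.62, and its open symbol for WT rests on 4 reads in all.

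The difference between the genotypes in the response to stiffness passed the threshold for 1 of the 4 genes, Peg3 (1.01, SE 0.26, adjusted p = 0.0444), against 10.5% of all genes (4.47% with a positive and 6% with a negative difference). This value sets a fall in Cav1KO MEFs against a near absence of reads in WT MEFs, and the sign turned with edgeR (-0.30, adjusted p = 0.848) and DESeq2 (-0.51, adjusted p = 0.880) on the recovered reads. Leaving out a library gave adjusted p-values of 0.0137 to 0.170, and the call was lost without any library other than the first Cav1KO stiff library. For Mest (-0.36, adjusted p = 0.251) and Grb10 (-0.33, adjusted p = 0.353) the difference was not detectable at this depth.

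Per kilobase of exonic sequence, Dlk1 stood far above the others in every group. The length used joins the exons of all annotated transcripts of a gene, so it is a rough guide to levels between genes. In WT MEFs it was at 79.7 ± 14.3 CPM per kb on stiff and 181 ± 17.1 on soft, and in Cav1KO MEFs at 15.7 ± 3.29 on stiff and 61.5 ± 3.16 on soft (mean ± SD, n = 2). In WT soft, Mest was at 0.638, Grb10 at 0.175 and Peg3 at 0.00655 CPM per kb. In Cav1KO soft this order was changed, with Peg3 at 1.94, Mest at 0.0525 and Grb10 at 0.0143 CPM per kb.

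Mest overlaps Copg2, which encodes a coat protein of Golgi vesicles and runs on the opposite strand. The exons of these genes share 912 bases, and 20.8% of the windows of 60 bases in Mest transcripts also occur in Copg2, whereas the transcripts of Peg3, Dlk1 and Grb10 share none with a listed gene. The sources used here do not state that the libraries kept strand, so reads of Mest are uncertain where the genes overlap. Copg2 moved in the opposite direction between genotypes, with mean CPM of 27.9 (stiff) and 38.1 (soft) for WT and of 44.2 (stiff) and 70.4 (soft) for Cav1KO MEFs. It was higher in Cav1KO MEFs by 0.65 on stiff (SE 0.10, adjusted p = 0.000734) and by 0.87 on soft (SE 0.10, adjusted p = 0.000121) on the log2 scale.

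The listed genes within 500 kb on either side of the 4 genes, up to 3 a side, moved in both directions between genotypes. Of all genes, 51.7% were called on stiff (25% higher and 26.6% lower) and 54.0% on soft (24.1% higher and 29.9% lower). Around Dlk1, Begain was lower in Cav1KO MEFs (-0.80 on stiff and -0.68 on soft, adjusted p = 0.00813 and 0.0157), while Wdr25 (0.95 and 0.74, adjusted p = 0.00578 and 0.0173) was higher. Mirg, a noncoding RNA of the same imprinted cluster that is expressed from the maternal copy, was also higher (0.77 and 0.83, adjusted p = 0.00583 and 0.00370), with 3 to 8 reads in each WT library and 18 to 26 in each Cav1KO library. Around Peg3, 5 zinc finger genes were tested and none was called higher in Cav1KO MEFs. The nearest listed gene, Zfp28, lay 307 kb away. Usp29, Zim1, Zim2 and Zfp264, imprinted genes of the Peg3 cluster, were not listed, so that cluster was not examined beyond Peg3. Zfp772, at 472 kb, was lower on both substrates (-1.34 and -1.72, adjusted p = 0.000115 and 2.41e-05), and Zfp954 was lower on soft (-0.50, adjusted p = 0.0240). Near Grb10 only Fignl1, a gene of a fidgetin-like ATPase, was listed, which was higher on stiff (0.62, adjusted p = 0.000956) and not called on soft (0.16, adjusted p = 0.213). Near Mest, where the overlapping Copg2 was counted, 3 of 6 genes on stiff and 4 of 6 on soft were higher in Cav1KO MEFs and none was lower. Klhdc10 had the largest of these differences on stiff (1.01, adjusted p = 1.48e-05).

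**Figure D3:**
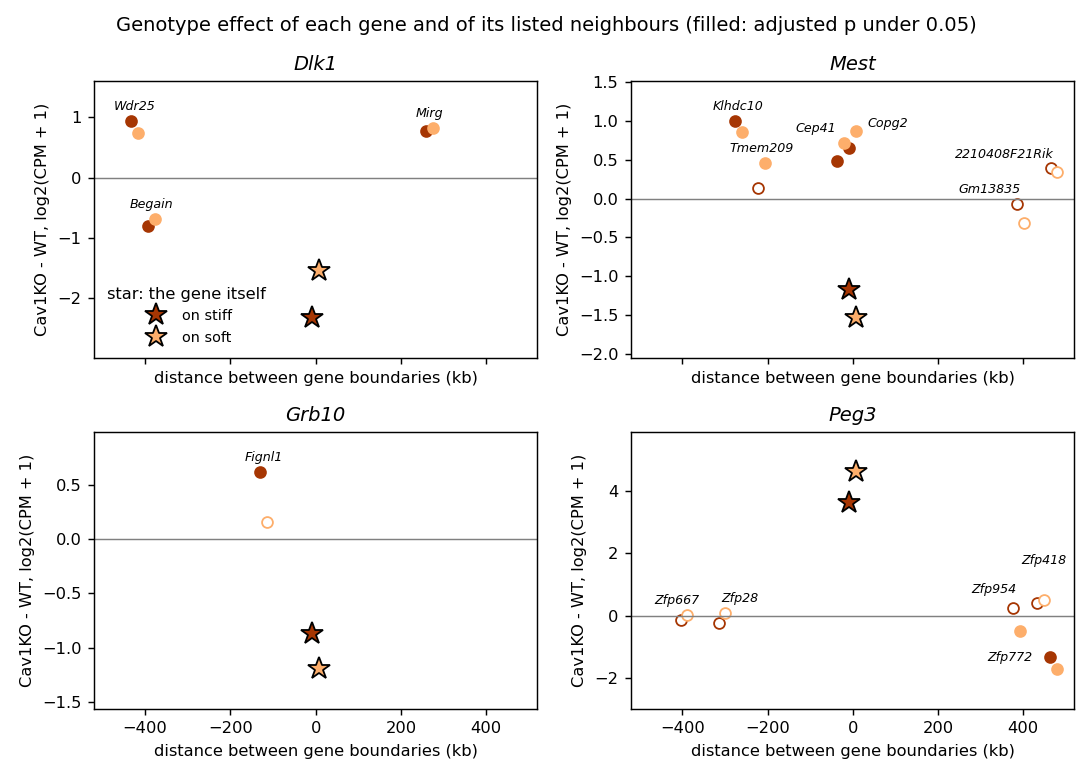
Difference between Cav1KO and WT in log2(CPM + 1) (y axis) of each of the 4 genes (stars at 0) and of its listed neighbours (circles), by the distance in kb between gene boundaries (x axis, with points on stiff and soft set slightly apart). Filled circles had an adjusted p under 0.05. No neighbour of Peg3 or Mest moved with a filled circle in the direction of the gene itself, and the nearest listed neighbour of Peg3 was 307 kb away.

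Over the 8 libraries, Grb10 and Mest followed each other closely (Pearson r = 0.983 on log2(CPM + 1)), and Dlk1 had r = 0.878 with Grb10 and 0.885 with Mest. Peg3 ran against Mest (r = -0.903), Grb10 (-0.878) and Dlk1 (-0.636). These values are a description, since the libraries share 4 group means. The genes most like Peg3 were Pax2, a transcription factor of kidney and eye development (r = 0.999), Nrxn2, a synaptic adhesion protein (0.999), and Elfn1 (0.998). Pax2 had 0 reads in the WT groups, and its mean CPM in Cav1KO MEFs was 9.20 on stiff and 16.6 on soft. The genes most like Dlk1 were the collagen genes Col4a5 (r = 0.996) and Col5a3 (0.994) and the membrane protein gene Myadm (0.994). Col4a5 fell from 37.7 and 82.5 CPM in WT stiff and WT soft to 4.51 and 24.0 CPM in Cav1KO MEFs. Tmem2, Nlrx1 and Pappa, a protease of IGF binding proteins, were most like Grb10 (0.996, 0.993 and 0.991), and Gpt2, Dync1li2 and Gm2115 most like Mest (0.999, 0.996 and 0.996). Such patterns were common, with 458 genes over r = 0.95 for Peg3, 202 for Dlk1, 277 for Grb10 and 439 for Mest.

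Of 63 other imprinted genes, 31 were listed and tested, and they moved in both directions between genotypes. On stiff 11 were higher and 7 lower in Cav1KO than in WT MEFs, with a median of 0.10, and on soft 11 were higher and 8 lower, with a median of 0.18. The background for these counts was 51.7% of all genes called on stiff and 54.0% on soft, with a median of -0.03 on either. The largest rise was that of Igf2, the fetal growth factor expressed from the paternal copy in a cluster that it shares with H19. On stiff it was at 0.261 ± 0.128 CPM in WT against 122 ± 30.4 CPM in Cav1KO MEFs, and on soft at 1.17 ± 0.137 CPM against 487 ± 1.27 CPM (mean ± SD, n = 2, log2 differences of 6.59 and 7.81, adjusted p = 3.00e-08 and 1.15e-08). Like Dlk1 and Peg3, Igf2 was lower on stiff than on soft in Cav1KO MEFs (3.99-fold, adjusted p = 3.43e-05). It was also lower on stiff in WT MEFs, with 10 against 41 reads (-0.79, adjusted p = 0.00490), a call lost with a pseudocount of 5 CPM (adjusted p = 0.209). The largest falls were those of Slc38a4, an amino acid transporter gene of placenta and liver, and Snrpn, which encodes a component of the splicing machinery. Slc38a4 was 90.3-fold lower on stiff and 128-fold lower on soft (adjusted p = 2.60e-09 and 2.51e-09), from 226 to 284 CPM in the WT group means to 1.76 to 3.15 CPM in Cav1KO. Snrpn fell from 19.8 to 0.335 CPM on stiff and from 15.8 to 0.261 CPM on soft (adjusted p = 5.40e-07 and 7.08e-07).

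Within clusters, genes moved together in some cases and apart in others. Dio3, the deiodinase that inactivates thyroid hormone, lies in the Dlk1 cluster and is preferentially expressed from the same parental copy as Dlk1. It was 8.10-fold lower in Cav1KO MEFs on stiff (2.48 ± 0.678 CPM against 20.1 ± 4.89 CPM, adjusted p = 1.15e-05) and 3.67-fold lower on soft (6.97 ± 0.616 CPM against 25.6 ± 1.76 CPM, adjusted p = 0.000114). Peg12, named after its values were seen, shares a cluster with Snrpn and was higher in Cav1KO MEFs, 5.06-fold on stiff and 4.15-fold on soft (adjusted p = 4.04e-06 and 1.19e-05). Peg10, a gene derived from a retrotransposon, changed in opposite directions with stiffness. It was lower on stiff in WT MEFs (-0.54, adjusted p = 0.00149) and higher on stiff in Cav1KO MEFs (0.52, adjusted p = 0.00137), and the difference between these effects was -1.05 (SE 0.13, adjusted p = 0.00480).

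**Figure D4:**
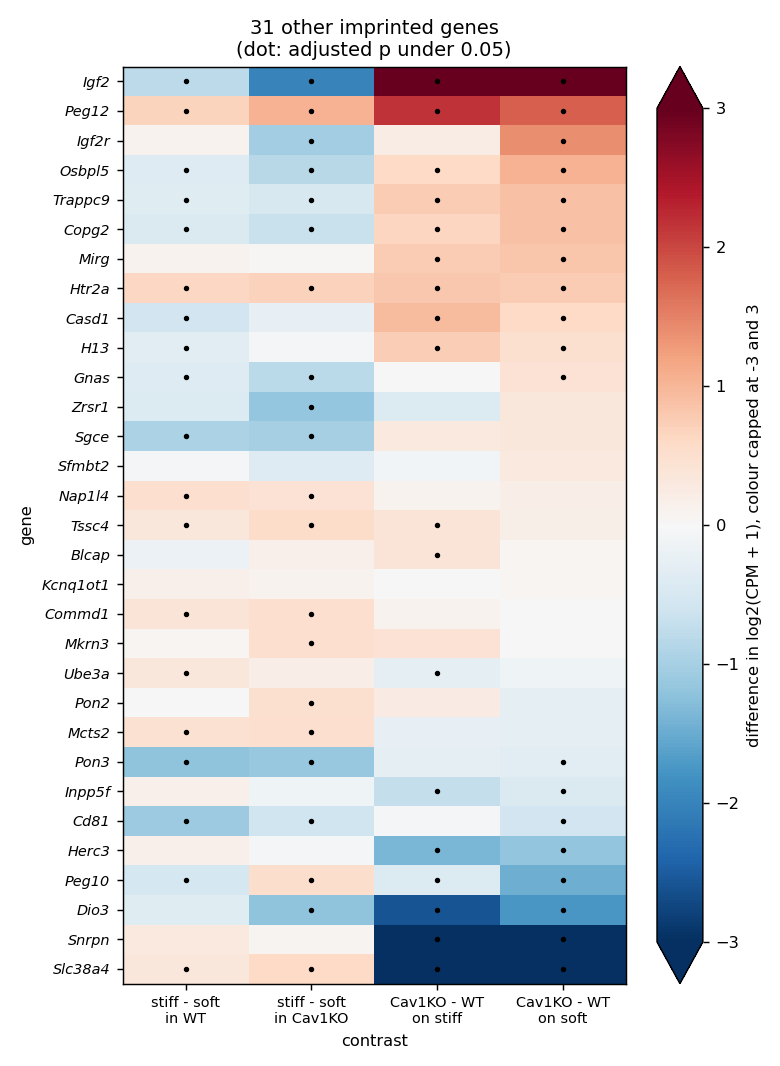
Difference in log2(CPM + 1), as colour from -3 to 3, of 31 other imprinted genes (rows, ordered by the difference between genotypes on soft) in 4 contrasts (columns), with a dot where the adjusted p was under 0.05. Igf2 is darkest red and Snrpn and Slc38a4 are darkest blue in the columns of genotype, where 11 genes were higher and 7 (stiff) or 8 (soft) lower.

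With stiffness, 8 of the 31 genes were higher and 11 lower on stiff in WT MEFs, and 10 were higher and 11 lower in Cav1KO MEFs, where 48.4% and 56.1% of all genes were called, respectively. The 19 calls in WT became 11 without the first WT stiff library, 10 without the first WT soft library and 12 without the second WT soft library. Pon3 (-1.20), Cd81 (-1.10) and Sgce (-0.96) had the largest falls in WT MEFs (adjusted p = 0.000162, 8.62e-05 and 0.000594). In Cav1KO MEFs the largest falls were those of Igf2, Dio3 (-1.21, adjusted p = 0.000918) and Zrsr1 (-1.15, adjusted p = 0.00283). The median difference of the list was -0.02 in WT and -0.03 in Cav1KO, against -0.02 for all genes in each.

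Grb10 acts on receptors of insulin and the IGFs, and 15 of 17 genes of that pathway were tested. On stiff, 3 were higher and 7 lower in Cav1KO MEFs, and on soft 6 were higher and 6 lower, against 51.7% and 54.0% of all genes called. Igf1, the postnatal growth factor, ranged from 1.03 to 1.99 CPM over the WT libraries and did not exceed 0.105 CPM in Cav1KO MEFs (adjusted p = 0.000761 on stiff and 0.000153 on soft). Igf2bp3, an RNA-binding protein gene of fetal growth, was 2.62-fold lower on stiff and 2.39-fold lower on soft (adjusted p = 1.48e-05 and 2.57e-05). Igf2r, the imprinted receptor that clears IGF2 from the cell surface, was 2.65-fold higher in Cav1KO MEFs on soft (121 ± 2.18 CPM against 45.9 ± 0.464 CPM, adjusted p = 7.02e-05) and not called on stiff (0.22, adjusted p = 0.218). The difference between its genotype effects was 1.16 (SE 0.20, adjusted p = 0.0177, limma) and did not pass in 5 of 19 alternatives. With stiffness, 2 genes of the pathway were higher and 6 lower on stiff in WT MEFs, and 2 were higher and 9 lower in Cav1KO MEFs, against 48.4% and 56.1% of all genes called. The 8 calls in WT became 5 without the first WT stiff library and 4 without the first WT soft library. Igf1r, the receptor of both IGFs, was 2.13-fold lower on stiff in Cav1KO MEFs (adjusted p = 0.000666) and did not pass in WT MEFs (0.04, adjusted p = 0.874).

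Dlk1 is a relative of the Notch ligands, and 8 of 14 Notch pathway genes were tested. Between genotypes 1 was higher and 6 lower in Cav1KO MEFs on stiff, and 2 were higher and 5 lower on soft, against 51.7% (26.6% lower) and 54.0% (29.9% lower) of all genes called. Dlk2, the closest relative of Dlk1, was lower in Cav1KO MEFs as Dlk1 was (3.53-fold on stiff and 3.22-fold on soft, adjusted p = 2.84e-06 and 4.82e-06). With stiffness it moved the other way from Dlk1, and was higher on stiff, 2.20-fold in WT and 2.003-fold in Cav1KO MEFs (adjusted p = 0.000105 and 0.000129). The Notch target Hes1 was 8.55-fold lower in Cav1KO MEFs on stiff (1.30 ± 0.256 CPM against 11.1 ± 1.35 CPM, adjusted p = 1.34e-05). On soft its mean was 5.13-fold lower. The target Hey1 was 3.30-fold lower on soft (adjusted p = 2.68e-06), and its mean was 1.29-fold lower on stiff. The ligand gene Dll1 was higher in Cav1KO MEFs, at 4.001 to 5.86 CPM against 0.0570 to 1.03 CPM in WT (log2 differences of 2.24 and 1.70, adjusted p = 1.47e-05 and 7.02e-05). The receptor gene Notch3 fell on stiff as Dlk1 did, 4.79-fold in WT and 5.89-fold in Cav1KO MEFs (adjusted p = 8.35e-05 and 2.29e-05). In all, 2 genes of the pathway were higher and 4 lower on stiff in WT MEFs, and 2 were higher and 3 lower in Cav1KO MEFs, against 48.4% and 56.1% of all genes.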

How the data were processed

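Samples were assigned to the 4 groups of 2 libraries from the genotype and matrix that their labels give. Per the labels, poly(A) RNA was purified from 500 ng of total RNA and read from a single end over 60 nt. The submitters' processing notes name CASAVA 1.8.2, cutadapt, RSEM 1.2.3 and GRCm38, without a role for each. The authors deposited TMM-normalized CPM, so the deposited signal of a gene is its read count divided by the effective size of its library. In each library 100% of values were whole multiples of the value of 1 read within 0.01 reads, and these multiples were treated as reads. Whether they are rounded estimates is not stated, and the counting intervals take them as observed reads.

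The test was that of limma 3.58.1 (R 4.3.3) for the genes that reached 1 CPM in 2 or more libraries, on log2(CPM + 1), a scale that understates changes of low genes, with a mean-variance trend, all 4 groups in a single fit, two-sided tests and Benjamini-Hochberg adjustment. Alternatives used other pseudocounts, filters and scalings, edgeR 4.0.16 and DESeq2 1.42.0 on the recovered reads, the groups compared alone, a replicate block, and each library left out. Ratios of reads have exact conditional counting intervals. Exons came from GENCODE (GRCm38), which matched 12451 of 12528 genes, and the window of 60 bases for shared sequence was that of the reads. The genes named were drawn from the 10 imprinted genes, Cav1 and the 3 largest changes of each list in each contrast. The 3 genes most correlated with each gene tested and up to 3 listed neighbours per side were also used. Not every gene that these rules select is named. The genes, lists and alternatives were chosen with earlier results of these data known. The fits were tested on simulated data.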

Additional observations from a re-analysis of the deposited data

Results flagged for a closer look

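The response of Peg3 to stiffness differed between the genotypes in the test of the difference itself (1.01 on the log2(CPM + 1) scale, SE 0.26, adjusted p = 0.0444, limma). Peg3 fell on stiff in Cav1KO MEFs by 1.10, higher in soft than in stiff in 2 of 2 libraries each, while the WT libraries held 4 reads of Peg3 in all. The value was 0.57 (adjusted p = 0.413) with a pseudocount of 0.1 CPM, -0.30 (adjusted p = 0.848) with edgeR and -0.51 (adjusted p = 0.880) with DESeq2. At these depths a ratio with stiffness in WT MEFs was not measurable, with 1 read on stiff against 3 reads on soft.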

How the results depend on the processing

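Genotype calls of Peg3 and Dlk1 held in 20 of 20 alternatives on each substrate, and those of Grb10 and Mest in 19 of 19 in which they were tested. For Peg3, Grb10 and Mest this is no independent support, since they passed the filter at 1 CPM only through the genotype in which they were higher. With a filter at 5 CPM, Grb10 and Mest were not tested, so the genotype calls fell from 4 to 2 on each substrate and the WT stiffness calls from 3 to 1. WT stiffness calls were also 1 with a pseudocount of 0.1 CPM, quantile normalization, edgeR and DESeq2, and 1 to 3 with a library left out. Cav1KO stiffness calls were 2 in each fit without a library, and 3 with a pseudocount of 0.1 CPM. Interaction calls went from 1 to 0 with a pseudocount of 0.1 CPM and with edgeR, and were 0 to 2 with a library left out, 2 without the first Cav1KO stiff library and 1 without the second WT stiff library. With DESeq2 the single call was Dlk1 (0.80, adjusted p = 0.00214). Signs of the interaction turned for Peg3 (edgeR -0.30, DESeq2 -0.51), Grb10 (pseudocount 0.1 CPM 0.23, edgeR 3.42), Mest (pseudocount 0.1 CPM 0.40, edgeR 1.69) and Igf2 (edgeR -0.10, DESeq2 -0.12); the cause was not tested. Over all genes, WT stiffness calls went from 6046 to 3913 without the first WT soft library, and interaction calls were 1309 in the fit reported and 810 with a pseudocount of 0.1 CPM, 883 with plain totals, 705 without the trend, 902 with edgeR and from 110 to 3436 with a library left out. The deviations of libraries with the same replicate number correlated at r from -0.367 to 0.415 between groups, over 0.1 in 2 of 6 pairs of groups (WT stiff with either Cav1KO group), so the numbers were not taken to pair the samples. A replicate block gave 1 interaction call among the 4 genes (Peg3, adjusted p = 0.0383) and changed no other call among them. With 5 reads or fewer a library, depth limits Peg3 in WT and Grb10 and Mest in Cav1KO MEFs.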

Other observations

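Of 22 genes that maintain imprints and chromatin, 19 were tested, and 9 were higher and 1 lower on stiff in WT MEFs, 6 higher and 6 lower on stiff in Cav1KO MEFs, 1 higher and 2 lower in Cav1KO MEFs on stiff, and 5 higher and 3 lower on soft. Of all genes, 48.4%, 56.1%, 51.7% and 54.0% were called in these comparisons, respectively. Tet2 and Dnmt3a were lower on stiff in Cav1KO MEFs (-1.47 and -1.22, adjusted p = 0.000394 and 0.00105, limma). Uhrf1, which recruits the maintenance methyltransferase to replicating DNA, was 2.15-fold higher on stiff in WT and 2.32-fold in Cav1KO MEFs (adjusted p = 0.000332 and 0.000150, limma). Hells, a remodelling helicase needed for DNA methylation, was 2.14-fold and 2.41-fold higher (adjusted p = 9.47e-05 and 2.99e-05). Dnmt1 itself was higher on stiff in WT MEFs (1.31, adjusted p = 0.00748), a call lost without the first WT stiff (adjusted p = 0.0555) or the first WT soft library (0.0674). The 10 calls in WT became 6 without the first WT soft library. On soft, the 8 calls between genotypes became 4 without that library, 2 without the first Cav1KO soft library and 3 without the second, and the 3 calls on stiff became 6 without the first Cav1KO stiff library. Of 14 proliferation genes, 11 were higher and none lower on stiff in WT MEFs, and 11 were higher and 2 lower in Cav1KO MEFs, where 22.1% and 27.9% of all genes were higher.

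Cdkn1c was not analysed here, but the 6 other inhibitors of cyclin-dependent kinases were tested. On stiff relative to soft, 4 were lower and none higher in WT MEFs, and 3 were lower and 1 higher in Cav1KO MEFs, against 48.4% and 56.1% of all genes called (26.3% and 28.2% lower). Between genotypes 3 were lower in Cav1KO MEFs on stiff and 4 on soft, and none was higher, against 51.7% and 54.0% of all genes called (26.6% and 29.9% lower). The 4 calls on soft became 2 without the first WT soft or the first Cav1KO soft library. Cdkn1a, the p21 gene, changed in opposite directions with stiffness, falling on stiff in WT MEFs (-1.10, adjusted p = 0.000545) and rising in Cav1KO MEFs (0.98, adjusted p = 0.000736), with a difference between the effects of -2.07 (SE 0.21, adjusted p = 0.00286). Its difference between genotypes was -2.66 on soft (adjusted p = 2.08e-06) and -0.59 on stiff (adjusted p = 0.0109), and the latter was lost without the first WT stiff library (0.0663) or the second Cav1KO stiff library (0.0649). Cdkn2a, which encodes p16 and p19ARF, was 2.46-fold lower on stiff in WT and 2.22-fold lower in Cav1KO MEFs (adjusted p = 7.61e-05 and 6.31e-05), with differences between genotypes of 0.02 on stiff (adjusted p = 0.903) and -0.12 on soft (adjusted p = 0.368).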
